A study of Homo sapiens with 8 samples.

Results

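The HOX cluster genes of HT-29 cells were described here as the 39 protein-coding genes whose symbol is HOXA, HOXB, HOXC or HOXD followed by a number, out of 48162 gene identifiers in the deposited count files. They comprised 11 genes of the HOXA cluster on chromosome 7, 10 of HOXB on chromosome 17, 9 of HOXC on chromosome 12 and 9 of HOXD on chromosome 2. HOX genes encode homeodomain transcription factors that set position along the body axis. Within a cluster the genes lie in the order of their paralog number, low numbers being used towards the head and high numbers towards the tail, and genes with the same number in different clusters are close relatives. In the adult gut the clusters keep a regional pattern, with posterior genes such as HOXB13 and HOXD13 used towards the rectum. Polycomb complexes keep silent clusters closed, Trithorax proteins and retinoid receptors open them, and the caudal factors CDX1 and CDX2, of the sister ParaHox family, act upstream of several HOX genes.

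HT-29 cells come from a human colorectal adenocarcinoma, and the study compared unmodified cells (WT) with MIEN1_KO cells, whose labels give the genotype HT-29-pMIEN1-X. MIEN1 encodes a small membrane-anchored protein linked to cell migration. Per the labels' protocols, the edited cells received plasmids for guides at the 5' and 3' side of MIEN1 and for Cas9, were selected with puromycin and were cloned from single cells. No such cloning is described for WT and the number of clones is not given in the sources used here, so that an effect of cloning and one of the genotype cannot be told apart. Each group had 4 replicates, each pooling RNA from 4 dishes.

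MIEN1 itself was counted 522, 594, 471 and 493 times in WT replicates 1 to 4 and 15, 19, 23 and 16 times in MIEN1_KO replicates 1 to 4. Its mean level was 21.6 ± 1.36 CPM (counts scaled to a common library size; SD, n = 4) in WT and 0.805 ± 0.186 CPM in MIEN1_KO (log2 fold change -4.75, SE 0.16, edgeR Benjamini-Hochberg adjusted p = 1.0e-11). The groups did not overlap, and by exact 2-sided permutation p was 0.0286, the lower bound for groups of this size. Libraries held 21940903 to 25148790 counts, of which HOX genes took 0.110% to 0.124%. The libraries separated by group on the first principal component (74.2% of the variance), and MIEN1_KO replicate 4 stood apart from the other MIEN1_KO replicates on the second (9.13%). Of 12 colon epithelium markers all were detected. Of these 6 rose and 3 fell, CDX1 and CDX2 among the latter (75% called, against 41.7% of all tested genes). Their summed level was 11710 to 12308 CPM in WT and 14820 to 18760 CPM in MIEN1_KO. Most of this sum was KRT8, with means of 7237 CPM in WT and 10237 CPM in MIEN1_KO. Summed over 8 fibroblast markers the level was 2.18 to 3.45 CPM in WT and 3.56 to 5.05 CPM in MIEN1_KO (COL3A1 at 0), and over 3 endothelial markers it was at most 0.0926 CPM (KDR at 0). The 6 leukocyte markers summed to 895.4 to 934.4 CPM in WT and 721.9 to 782.0 CPM in MIEN1_KO, nearly all of it LYZ, with means of 906.9 and 748.2 CPM. The part of these shifts in the HOX values was not tested.

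HT-29 used the 4 clusters very unequally, in either group. In WT the 10 HOXB genes summed to 825.4 ± 23.1 CPM (73.8% of all HOX signal), the 11 HOXA genes to 258.3 ± 6.21 CPM (23.1%), the 9 HOXC genes to 31.7 ± 1.16 CPM (2.83%) and the 9 HOXD genes to 3.41 ± 0.116 CPM (0.305%). Corrected for exon length, the highest members were HOXB9 (121.5 ± 4.52 CPM per kb in WT) and HOXB7 (108.9 ± 3.91), followed by HOXB6 (43.3 ± 1.98), HOXB5 (30.3 ± 1.75) and HOXB8 (25.4 ± 0.493). These 5 neighbours of the central and posterior HOXB cluster stood above every HOXA gene. Within HOXA the top was shared by HOXA5 (17.1 ± 0.939 CPM per kb), HOXA11 (15.7 ± 0.512) and HOXA13 (15.1 ± 0.522), of which the latter pair do not differ beyond their spread. Across the measured genes of a cluster, Spearman's rho between paralog number and WT CPM per kb was 0.57 in HOXA (11 genes), 0.42 in HOXB (9 genes) and -0.89 in HOXC (6 genes), given as a description of genes that share libraries and, in part, exons. In HOXC the highest levels were those of HOXC4 (4.66 ± 0.344 CPM per kb) and HOXC6 (3.24 ± 0.239), in the central part, and the lowest of the tested genes those of HOXC13 (0.812 ± 0.127) and HOXC9 (0.617 ± 0.124).

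**Figure D1:**
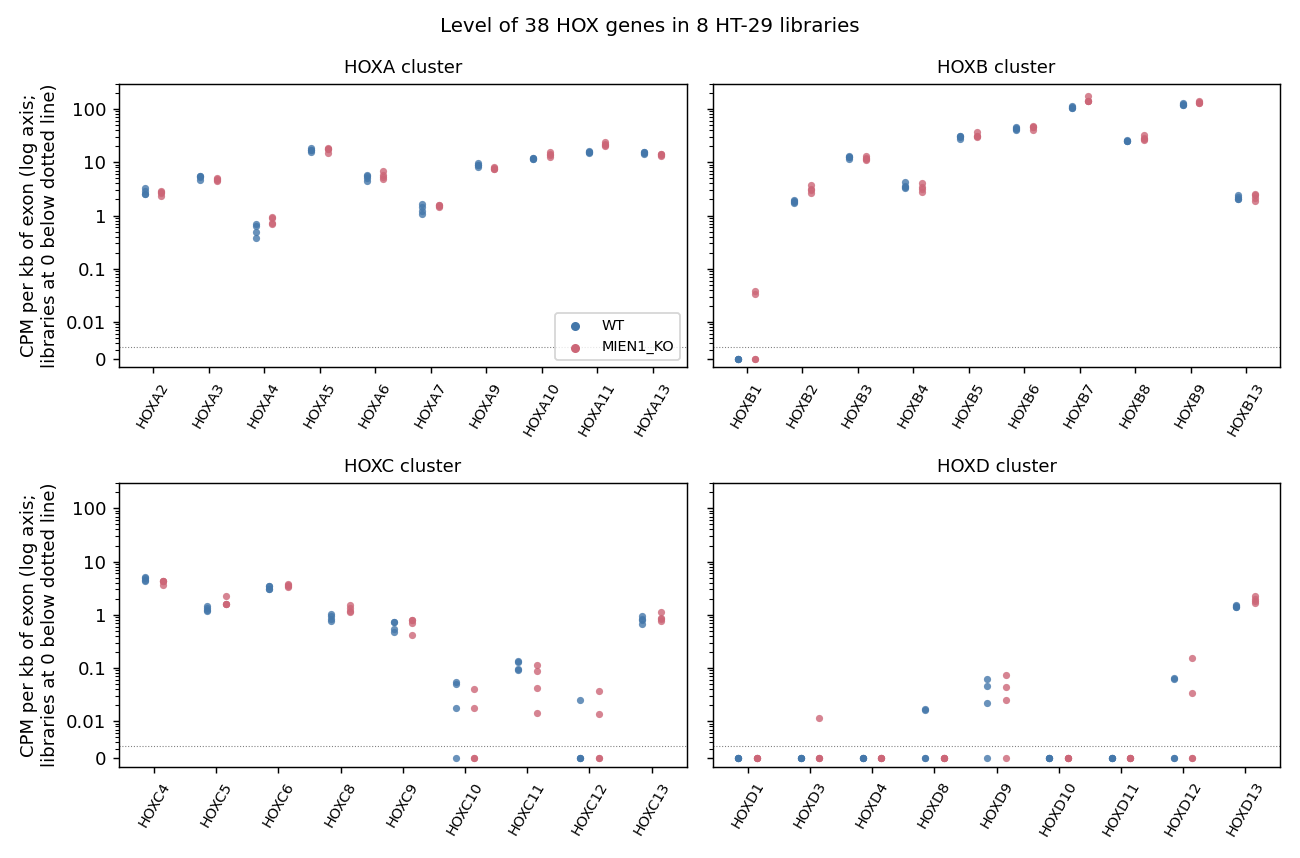
Level of 38 of the HOX genes, in CPM per kb of exon on a log axis, with 1 point per library (blue, 4 WT; red, 4 MIEN1_KO); points below the dotted line are libraries at 0. HOXB5 to HOXB9 lie highest, and in HOXD the single gene above 1 CPM per kb is HOXD13.

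A further 12 members had too few counts to be tested. HOXD1, HOXD4, HOXD10 and HOXD11 had 0 counts in all 8 libraries, which allows a level of up to 0.0160 CPM over the 8 libraries (3 counts, counting error only). HOXD3 had 1 count, HOXD8 had 2 counts, all in WT, and HOXB1 had 4 counts, all in MIEN1_KO replicates 1 and 4. HOXC12 had 2 and 4 counts over the 4 WT and 4 MIEN1_KO libraries, HOXC10 had 7 and 3, HOXD9 had 6 and 6, and HOXD12 had 4 and 6. The highest of the untested genes was HOXC11, with 35 counts in WT (0.366 ± 0.0737 CPM) and 20 in MIEN1_KO (0.213 ± 0.148 CPM), and its libraries overlapped between the groups. The HOXD cluster was thus read almost wholly through HOXD13, its most posterior gene, and HOXC through 6 of its 9 genes.

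Between WT and MIEN1_KO differences in HOX genes were small, and all called genes but 1 were higher in MIEN1_KO. Of the 27 HOX genes tested, 8 passed the threshold (29.6%; Benjamini-Hochberg adjusted p below 0.05 over all 14228 tested genes), against 41.7% of all tested genes. HOXB2, HOXA11, HOXB7, HOXC8, HOXC5, HOXD13 and HOXA10 were higher in MIEN1_KO, HOXA9 was lower, and 19 were not called. Over all tested genes 21% were higher and 20.7% lower. With upper-quartile factors in place of TMM the HOX split was 6 higher and 5 lower, HOXA13 and HOXC4 being among the added lower genes, and the split over all called genes moved from 2981 higher and 2952 lower to 2468 and 3752. A correction for transcript GC content gave 6 higher and 1 lower (HOXA3 in place of HOXA9), beside 4146 higher and 1951 lower over all genes. That correction moved the median log2 fold change of all tested genes by 0.10. Without MIEN1_KO replicate 4, the HOX split stayed at 7 higher and 1 lower, with HOXB9 (adjusted p = 0.0253) in place of HOXC5 (adjusted p = 0.0951).

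**Figure D2:**
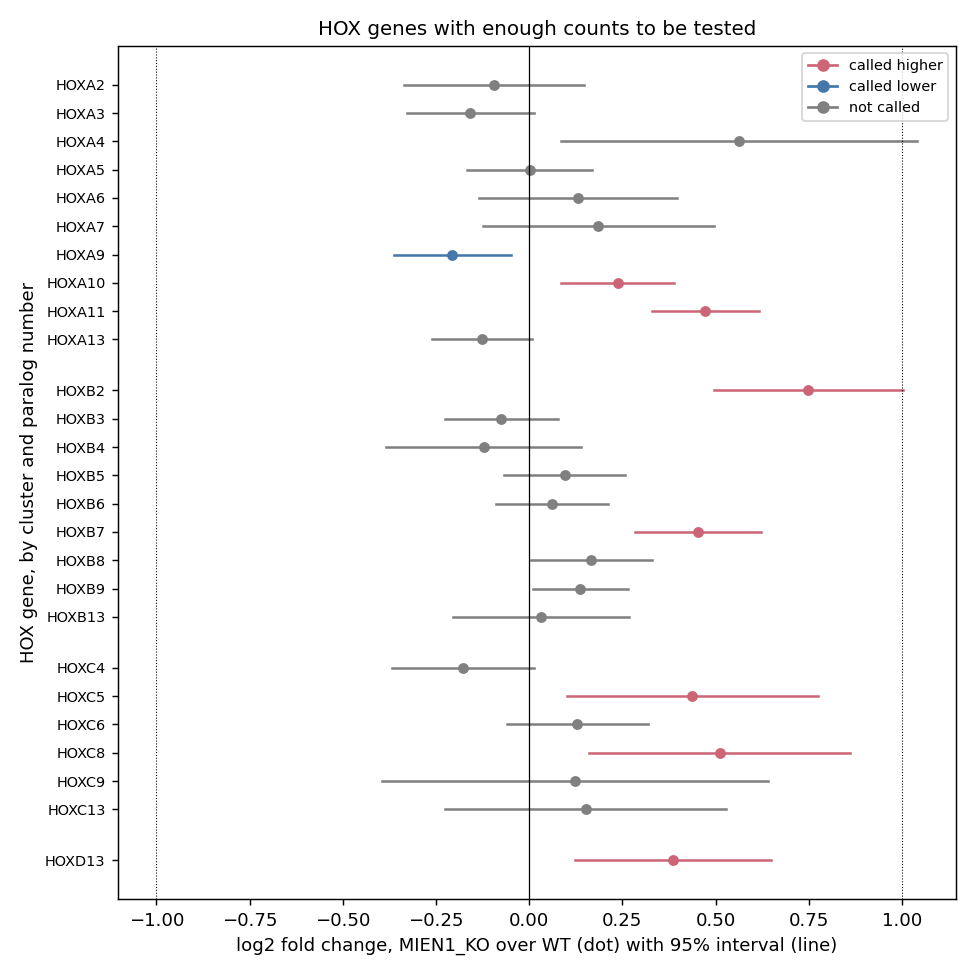
Log2 fold change of MIEN1_KO over WT (dot) with its 95% interval (line) for 26 of the HOX genes tested, by cluster and paralog number; red, called higher; blue, called lower; grey, not called; dotted lines, 2-fold. The estimates drawn run from -0.21 (HOXA9) to 0.75 (HOXB2) and none reaches a 2-fold change.

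The sizes of the HOX changes were small beside those of other genes. Their median absolute log2 fold change was 0.16, against 0.23 over all tested genes, and their median signed value was 0.13, against -0.02. After GC correction the signed medians were 0.05 for HOX genes and 0.08 for all genes. HOXB2 was the single HOX gene both called and changed by at least 1.5-fold, a class that held 13.7% of all tested genes, and no HOX gene was in the class called at 2-fold or more, which held 5.58%. For 25 of the 27 genes the 95% interval lay wholly within a 2-fold change in either direction. Among the 19 genes not called, an interval bound lay as high as 2.06-fold (HOXA4), so that smaller differences may have been missed. Groups did not overlap for 12 of the 27 genes (44.4%), against 41% of all tested genes. In RNA from whole dishes, a change in the number of cells that express a gene and a change in RNA per cell cannot be told apart.

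**Figure D3:**
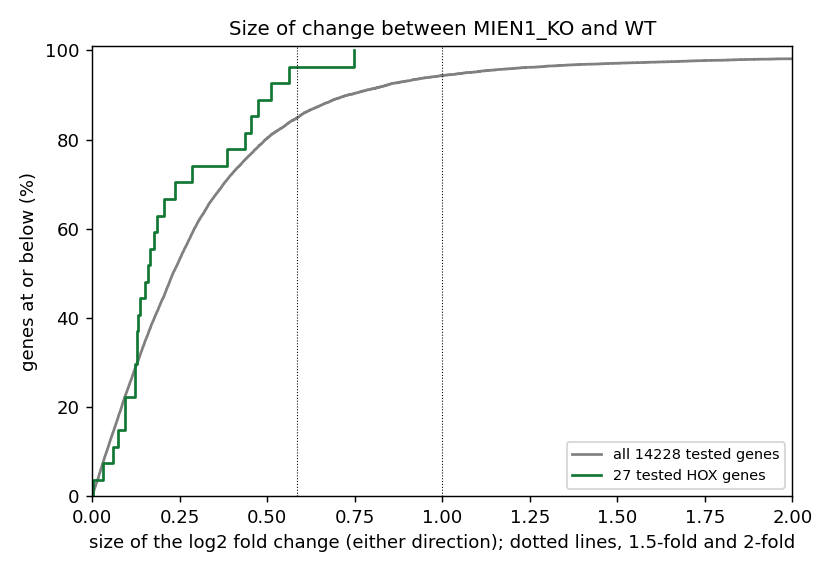
Cumulative share of genes (vertical axis, %) whose log2 fold change between MIEN1_KO and WT, in either direction, is at or below the size on the horizontal axis, for the 27 tested HOX genes (green) and all 14228 tested genes (grey); dotted lines, 1.5-fold and 2-fold. The HOX line ends at 0.75 (HOXB2), while 5.58% of all tested genes were called with a change of 2-fold or more.

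The HOXB cluster, the most active one in these cells, held most of the added HOX signal in MIEN1_KO. Its sum was 825.4 ± 23.1 CPM in WT and 930.8 ± 52.3 CPM in MIEN1_KO, a ratio of 1.13, with every MIEN1_KO library (875.3 to 997.0 CPM) above every WT library (792.4 to 844.3 CPM). No test was made of such sums. HOXB7, a central-group gene often raised in tumours, measured 174.6, 161.0, 166.6 and 163.2 CPM in WT replicates 1 to 4 and 217.8, 213.2, 212.6 and 267.1 CPM in MIEN1_KO replicates 1 to 4. All MIEN1_KO libraries were above all WT libraries, replicate 4 well above the rest. Its log2 fold change was 0.45 (SE 0.08, adjusted p = 4.9e-04), and 0.39 (adjusted p = 2.3e-06) without MIEN1_KO replicate 4. HOXB2, a hindbrain and neural crest regulator at the anterior end of the cluster, measured 4.60, 4.36, 4.25 and 4.09 CPM in WT and 6.21, 7.21, 7.02 and 8.71 CPM in MIEN1_KO. The groups were wide apart and the change was the largest of any HOX gene, with a log2 fold change of 0.75 (SE 0.12, adjusted p = 2.2e-04), or 0.67 without replicate 4.

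The other 7 tested HOXB genes were not called, although for HOXB9 and HOXB8 the groups did not overlap. HOXB9, the most abundant HOX transcript, measured 304.6, 303.9, 317.2 and 328.5 CPM in WT and 349.3, 331.0, 341.3 and 358.1 CPM in MIEN1_KO. Each MIEN1_KO library was above the highest WT library, replicate 2 only just. The log2 fold change was 0.14 (SE 0.06, adjusted p = 0.0791), and the gene was called with the DESeq2 Wald test (adjusted p = 0.0227). HOXB8 stood at 52.2 ± 1.01 CPM in WT and 58.6 ± 5.91 CPM in MIEN1_KO (0.17, adjusted p = 0.0918), and was called without MIEN1_KO replicate 2 (adjusted p = 0.0388). HOXB3 had means of 93.3 ± 4.20 and 88.6 ± 6.83 CPM, HOXB4 of 13.7 ± 1.44 and 12.5 ± 2.27, HOXB5 of 61.8 ± 3.58 and 66.0 ± 5.60, HOXB6 of 112.6 ± 5.14 and 117.5 ± 8.63, and HOXB13 of 7.58 ± 0.656 and 7.74 ± 0.959 in WT and MIEN1_KO, in that order. These 5 genes overlapped between the groups, with log2 fold changes between -0.12 (HOXB4) and 0.09 (HOXB5). HOXB13, the prostate and hindgut gene at the far posterior end, changed sign with the GC correction (-0.09).

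In the HOXA cluster the calls fell in the posterior block, where 4 neighbouring genes went in different directions. The sum over the whole cluster overlapped between the groups, at 258.3 ± 6.21 CPM in WT and 268.1 ± 10.8 CPM in MIEN1_KO. HOXA11, a limb, kidney and uterus patterning gene, measured 36.4, 34.7, 36.5 and 37.5 CPM in WT replicates 1 to 4 and 49.9, 47.4, 49.5 and 54.6 CPM in MIEN1_KO replicates 1 to 4. The groups were far apart, and the log2 fold change of 0.47 (SE 0.07, adjusted p = 1.0e-04) had the smallest adjusted p of the 27 HOX genes. HOXA10, its relative with a role in uterine and haematopoietic development, measured 45.5, 44.6, 42.5 and 43.2 CPM in WT and 50.0, 47.5, 53.1 and 56.7 CPM in MIEN1_KO. All MIEN1_KO libraries were higher, with a log2 fold change of 0.24 (SE 0.07, adjusted p = 0.0154). HOXA9, known from leukaemias, measured 29.2, 24.8, 27.4 and 26.8 CPM in WT and 24.3, 23.0, 22.4 and 24.1 CPM in MIEN1_KO. The MIEN1_KO libraries were all lower, the highest of them lying just below the lowest WT library. The log2 fold change of HOXA9 was -0.21 (SE 0.07, adjusted p = 0.0366), and this call was lost with the GC correction (adjusted p = 0.422), with no filter on low counts (adjusted p = 0.0826) and without any 1 of WT replicates 1, 3 and 4 or MIEN1_KO replicates 1, 2 and 3 (adjusted p = 0.065 to 0.141). HOXA13, the last gene of the cluster, measured 74.1, 75.3, 79.4 and 79.0 CPM in WT and 72.9, 68.5, 72.8 and 67.4 CPM in MIEN1_KO. Its groups did not overlap either, but it was not called (-0.13, adjusted p = 0.119) and changed sign with the GC correction (0.10).

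The starts of these 4 HOXA genes are shown because neighbours a few kilobases apart differed in direction without the GC correction. With it HOXA9 (-0.07) was not called and HOXA13 (0.10) was positive. The start of HOXD13 is shown beside them. Each line gives the 250 bases before a RefSeq transcript start (GRCh38.p14), 5' to 3' on the gene's strand, with every CG dinucleotide in capitals. The HOXA9 window at chr7:27165538-27165787, the HOXA10 window at chr7:27174321-27174570, the HOXA11 window at chr7:27185233-27185482 and the HOXA13 window at chr7:27200092-27200341 are on the minus strand. The HOXD13 window at chr2:176092471-176092720 is on the plus strand. The HOXA9 and HOXA10 windows lie inside the annotated spans of those genes, upstream of their shorter transcripts, the HOXA11 and HOXD13 windows lie upstream of the annotated genes, and the last 15 bases of the HOXA13 window are annotated untranslated exon.
HOXA9: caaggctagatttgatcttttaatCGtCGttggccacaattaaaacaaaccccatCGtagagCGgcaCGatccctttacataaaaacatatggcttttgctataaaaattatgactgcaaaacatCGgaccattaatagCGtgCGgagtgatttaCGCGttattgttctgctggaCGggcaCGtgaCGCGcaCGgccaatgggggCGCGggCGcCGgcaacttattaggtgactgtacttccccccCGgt
HOXA10: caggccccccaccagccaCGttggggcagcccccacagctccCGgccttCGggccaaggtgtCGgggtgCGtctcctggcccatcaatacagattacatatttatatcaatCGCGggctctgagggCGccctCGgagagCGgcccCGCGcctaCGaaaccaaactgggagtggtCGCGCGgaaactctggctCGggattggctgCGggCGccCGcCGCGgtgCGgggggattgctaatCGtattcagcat
HOXA11: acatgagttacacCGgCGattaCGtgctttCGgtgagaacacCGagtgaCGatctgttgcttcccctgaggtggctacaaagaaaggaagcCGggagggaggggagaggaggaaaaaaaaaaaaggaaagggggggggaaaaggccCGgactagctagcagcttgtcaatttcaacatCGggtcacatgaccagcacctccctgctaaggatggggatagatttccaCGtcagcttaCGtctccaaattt
HOXA13: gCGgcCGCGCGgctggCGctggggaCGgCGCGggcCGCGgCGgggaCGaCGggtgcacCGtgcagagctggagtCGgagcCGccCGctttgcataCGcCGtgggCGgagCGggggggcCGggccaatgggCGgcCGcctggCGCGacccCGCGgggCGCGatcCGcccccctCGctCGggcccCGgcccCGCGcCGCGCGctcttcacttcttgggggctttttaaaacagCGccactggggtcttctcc
HOXD13: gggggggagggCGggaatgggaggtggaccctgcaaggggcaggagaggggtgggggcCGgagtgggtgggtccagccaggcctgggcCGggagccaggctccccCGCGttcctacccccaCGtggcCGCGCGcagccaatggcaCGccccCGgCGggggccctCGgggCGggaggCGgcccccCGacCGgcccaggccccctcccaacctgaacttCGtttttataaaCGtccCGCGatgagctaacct

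The windows of HOXA9, HOXA10, HOXA11, HOXA13 and HOXD13 held 20, 24, 11, 40 and 21 CG dinucleotides. HOXA10 has a second window in the table, which is all annotated untranslated exon, holds 19 CG and is not printed. The median was 19.5 over the 26 distinct windows of the 20 HOX genes found in the table and 11 over all 34943 distinct windows of the same length. The lower HOXA9 and the higher HOXA10 had similar CG numbers, and HOXA11, the clearest change, had the fewest of the 5. A relation between CG number and change was not tested, and the counts are per gene, not per start. Searched on both strands, CAATAAA, a form of the CDX site, was in 3 of 26 HOX windows (11.5%; 3.67% of all windows), 2 of them of HOXA3 and 1 shared by HOXC4 and HOXC5. TGATNNAT, a form of the joint PBX and HOX site, was in 3 HOX windows (11.5%; 6.49% of all). TGACAG, the MEIS and PKNOX site, was in 2 HOX windows (7.69%; 13.1% of all). None of the 5 printed windows held any of these letters, which says only that they are not in this stretch.

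The HOXA genes from HOXA2 to HOXA7 held no call. HOXA2, which patterns the second branchial arch, had means of 6.93 ± 0.881 and 6.49 ± 0.548 CPM and HOXA3 of 22.7 ± 1.79 and 20.4 ± 1.02 CPM, and both overlapped between the groups. HOXA4, the scarcest tested HOX gene in WT, measured 1.09, 1.21, 0.841 and 0.660 CPM in WT and 1.54, 1.25, 1.20 and 1.67 CPM in MIEN1_KO. Its estimate was large but wide (0.56, SE 0.22, 95% interval 0.09 to 1.04, adjusted p = 0.0543), and it was called without WT replicate 2 (adjusted p = 0.0371) or without MIEN1_KO replicate 3 (adjusted p = 0.0482). HOXA5 was at 29.3 ± 1.60 and 29.3 ± 2.40 CPM, with an interval of its log2 fold change from -0.17 to 0.17. HOXA6 had means of 6.68 ± 0.716 and 7.30 ± 1.11 CPM and HOXA7 of 3.21 ± 0.610 and 3.65 ± 0.188 CPM. Of their exon bases 39.3% and 62.5% are covered by HOXA-AS3 on the other strand. Without a known strand setting their reads cannot be told apart from it. Other genes cover 47.3% of the exon bases of HOXA4, 31.0% on the same strand, so its counts depend on how shared reads were assigned.

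Among the HOXC genes 2 central members, HOXC8 and HOXC5, were called higher, both from few counts. HOXC8, a thoracic patterning gene, measured 1.59, 1.83, 1.43 and 1.98 CPM in WT and 2.12, 2.58, 2.22 and 2.83 CPM in MIEN1_KO (164 and 222 counts over each group). The groups did not overlap, and the log2 fold change was 0.51 (SE 0.16, adjusted p = 0.0214). The call was lost without WT replicate 3 (adjusted p = 0.0653) and, narrowly, without WT replicate 1 (adjusted p = 0.05002). HOXC5 measured 2.13, 2.22, 2.61 and 2.42 CPM in WT and 2.83, 2.92, 2.87 and 4.12 CPM in MIEN1_KO, replicate 4 standing high. Its log2 fold change was 0.44 (SE 0.16, adjusted p = 0.0374), and the call was lost without MIEN1_KO replicate 4 (0.31), without WT replicates 1, 2 or 4 (adjusted p = 0.0553 to 0.0836), with the GC correction (0.30) and with upper-quartile factors (0.38). Of its exon bases 59.9% lie in other transcripts of the same strand, so its counts depend on how shared reads were assigned. The other 4 were not called and overlapped between the groups. In WT and MIEN1_KO, HOXC4 had means of 12.7 ± 0.936 and 11.2 ± 0.814 CPM (-0.18, adjusted p = 0.123), HOXC6 of 11.5 ± 0.846 and 12.5 ± 0.922, HOXC9 of 1.04 ± 0.208 and 1.14 ± 0.299, and HOXC13, a hair and nail gene, of 1.97 ± 0.307 and 2.19 ± 0.409. The HOXC sum was 31.7 ± 1.16 CPM in WT and 33.0 ± 2.27 CPM in MIEN1_KO, with overlapping libraries.

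HOXD13, a digit and hindgut gene and the single HOXD member with enough counts, was higher in MIEN1_KO. It measured 3.18, 3.43, 3.20 and 3.34 CPM in WT replicates 1 to 4 and 3.79, 4.04, 5.04 and 4.35 CPM in MIEN1_KO replicates 1 to 4. The WT libraries lay close together and below every MIEN1_KO library, replicate 3 being the highest. The log2 fold change was 0.39 (SE 0.12, adjusted p = 0.0214), and the call was lost without MIEN1_KO replicate 3 (0.32, adjusted p = 0.0582) or WT replicate 3 (adjusted p = 0.0509). The sum of the HOXD cluster, nearly all of it HOXD13, was 3.41 ± 0.116 CPM in WT and 4.45 ± 0.518 CPM in MIEN1_KO, a ratio of 1.30.

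**Figure D4:**
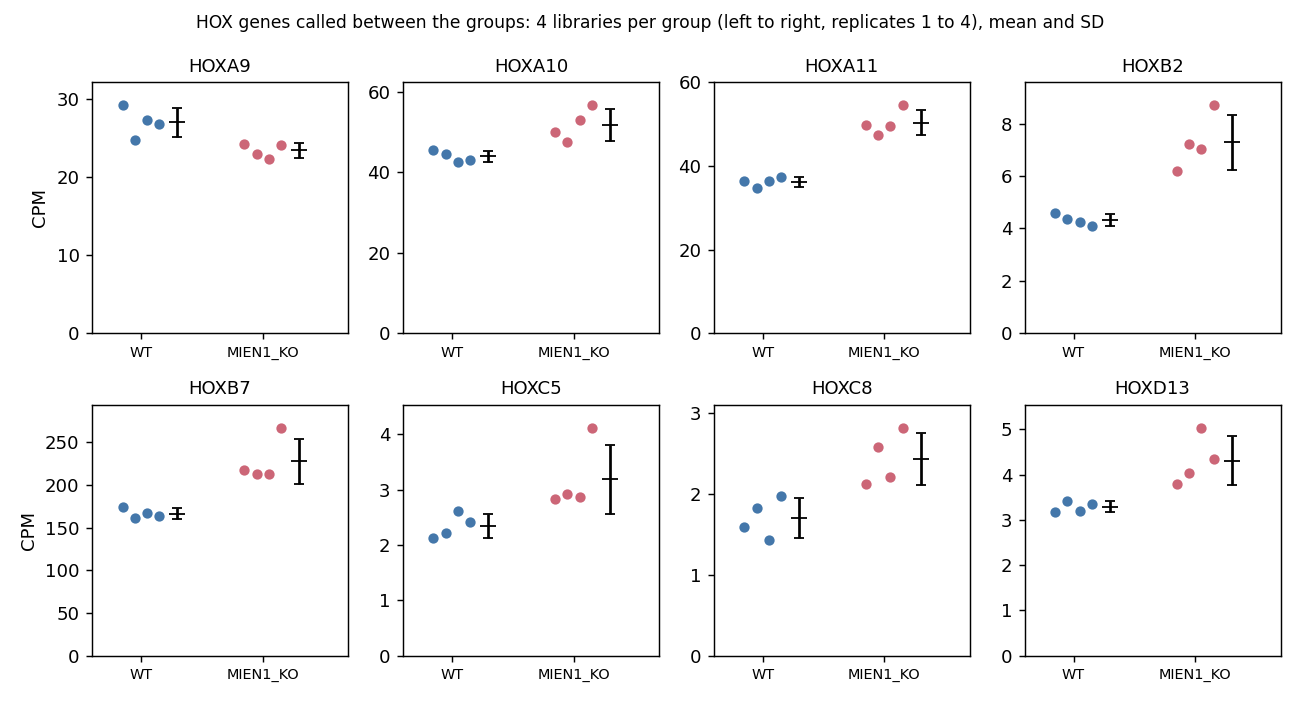
CPM of the 8 called HOX genes in each library (points, left to right replicates 1 to 4; blue, WT; red, MIEN1_KO) with the mean and SD of each group (black), each vertical axis starting at 0. HOXA9 is the single gene lower in MIEN1_KO, and replicate 4 stands high among the MIEN1_KO libraries for HOXB7 and HOXC5.

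Grouped by position instead of cluster, 1 of 5 tested anterior genes (paralog numbers 1 to 3) was higher and none lower, 3 of 13 central genes (4 to 8) were higher and none lower, and 3 of 9 posterior genes (9 to 13) were higher and 1 lower. The shares called were 20%, 23.1% and 44.4%, against 41.7% of all tested genes. The medians of the log2 fold change were -0.09, 0.13 and 0.14. Of the 13 central genes 11 had a positive estimate, beside 6741 of all 14228 tested genes. With the GC correction the central genes HOXA6 (-0.05) and HOXB6 (-0.01) turned negative, and 8920 of all 14228 estimates were positive. The difference between positions was not tested. Across the 27 genes, Spearman's rho between paralog number and log2 fold change was 0.25, and within clusters it was 0.34 in HOXA (11 genes), 0.05 in HOXB (9 genes) and 0.26 in HOXC (6 genes), again as a description. The same measure between transcript GC content and log2 fold change was 0.43 over the HOX genes and 0.52 over 13826 tested genes with a GC value, and the HOX genes had a median GC content of 54.2%, against 48.8%. No paralog number held more than 1 called gene, but HOXA10 and HOXA11 were the only genes of their numbers that were tested. HOXA13, HOXB13, HOXC13 and HOXD13 had log2 fold changes of -0.13, 0.03, 0.15 and 0.39. The 95% interval of HOXD13 (0.12 to 0.65) overlapped those of HOXB13 (-0.20 to 0.27) and HOXC13 (-0.22 to 0.53), but not that of HOXA13 (-0.26 to 0.01). Differences between relatives were not tested.

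Of 26 non-coding genes between the HOX genes 16 were tested, of which 1 was higher, 4 were lower and 11 were not called (31.2% called, against 41.7% of all tested genes). HOXA11-AS, on the strand opposite to HOXA11, measured 40.9, 43.1, 41.7 and 42.2 CPM in WT and 54.7, 52.7, 58.0 and 68.0 CPM in MIEN1_KO. It rose with no overlap by a log2 fold change of 0.48 (SE 0.08, adjusted p = 4.1e-04), close to the 0.47 of HOXA11 itself. In GENCODE, on which lengths and overlaps rest, HOXA11-AS begins at 27184507 on chromosome 7, inside HOXA11, whose first base is at 27185223, while RefSeq places the starts 175 bases apart with no overlap, at 27185408 and 27185232. In GENCODE HOXA11-AS covers 31.1% of the exon bases of HOXA11, and their reads cannot be told apart there, since the strand setting is not given in the sources used here. HOTTIP, on the strand opposite to HOXA13 and overlapping 1.69% of its exon bases in GENCODE, was at 36.4 ± 2.45 and 36.6 ± 1.32 CPM (0.01, adjusted p = 0.941). HOTAIR, a long non-coding RNA of the HOXC cluster known for binding Polycomb, measured 22.4, 25.4, 24.1 and 22.7 CPM in WT and 17.7, 18.4, 19.0 and 17.6 CPM in MIEN1_KO. Every MIEN1_KO library was lower, with a log2 fold change of -0.38 (SE 0.07, adjusted p = 0.00101). HAGLR, on the opposite strand and overlapping exons of HOXD1 and HOXD3, had 19, 31, 18 and 12 counts in WT. In MIEN1_KO it had 3, 1, 3 and 1, in all 80 against 8. The ratio of WT to MIEN1_KO, corrected for library size, was 9.49 (95% interval 4.59 to 22.7 for counting error only, adjusted p = 8.7e-05 in edgeR). HAGLR passed the low-count filter through WT, where it was high, so this size is not directly comparable with those of the HOX genes. HOXA-AS2 (-0.30, adjusted p = 0.0324) and LINC02086 (-0.39, adjusted p = 0.00555) were also lower, the latter not with the GC correction (adjusted p = 0.0521). HOTAIRM1 (16.2 ± 0.857 and 15.3 ± 2.48 CPM) and HOXB-AS3 (49.8 ± 3.14 and 53.3 ± 5.05 CPM) were not called.

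Around HOXA the median absolute log2 fold change was 0.48 over 10 flanking genes and 0.19 over the 11 HOXA genes, a contrast that was not tested. Flanking genes had to pass the low-count filter. CREB5, C7orf31 and CPVL, with few counts in some or all MIEN1_KO libraries, passed it through WT, where they were high. These medians are therefore not directly comparable. Of the 5 nearest tested protein-coding genes on each side of each cluster, 40 in all, 6 were higher, 14 lower and 20 not called (50% called, against 41.7% of all tested genes). Around HOXA 7 of 10 were lower and none higher. The largest of these was CREB5, a transcription factor gene beyond HOXA13, with 219 counts in WT and 5 in MIEN1_KO (-5.25, adjusted p = 1.1e-07). It was followed by C7orf31 on the other side (-2.19, from 55 and 11 counts), then by CPVL (2.49 ± 0.192 to 0.580 ± 0.288 CPM, -2.12) and CHN2 (10.8 ± 0.297 to 5.39 ± 0.219 CPM, -0.999) beyond CREB5. These 4 lie far from the cluster, CREB5 at 1.1 Mb, C7orf31 at 1.91 Mb, CPVL at 1.80 Mb and CHN2 at 1.95 Mb. Around HOXB 3 were higher and 1 lower, and SKAP1, the neighbour of HOXB1 and HOXB2, rose from 22.3 ± 1.12 to 35.2 ± 2.19 CPM (0.66, adjusted p = 9.8e-06), and was the single one higher with upper-quartile factors. HOXC flanks had 3 higher and 3 lower. HOXD flanks had 3 lower and none higher, the 10 estimates running from -0.36 to -0.07. These splits depended on the GC correction, which gave 17 higher and 8 lower of the 40, with 3 higher and 6 lower around HOXA, 6 and 1 around HOXB, 5 and 1 around HOXC, and 3 and 0 around HOXD, where 9 of 10 estimates were then positive.

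**Figure D5:**
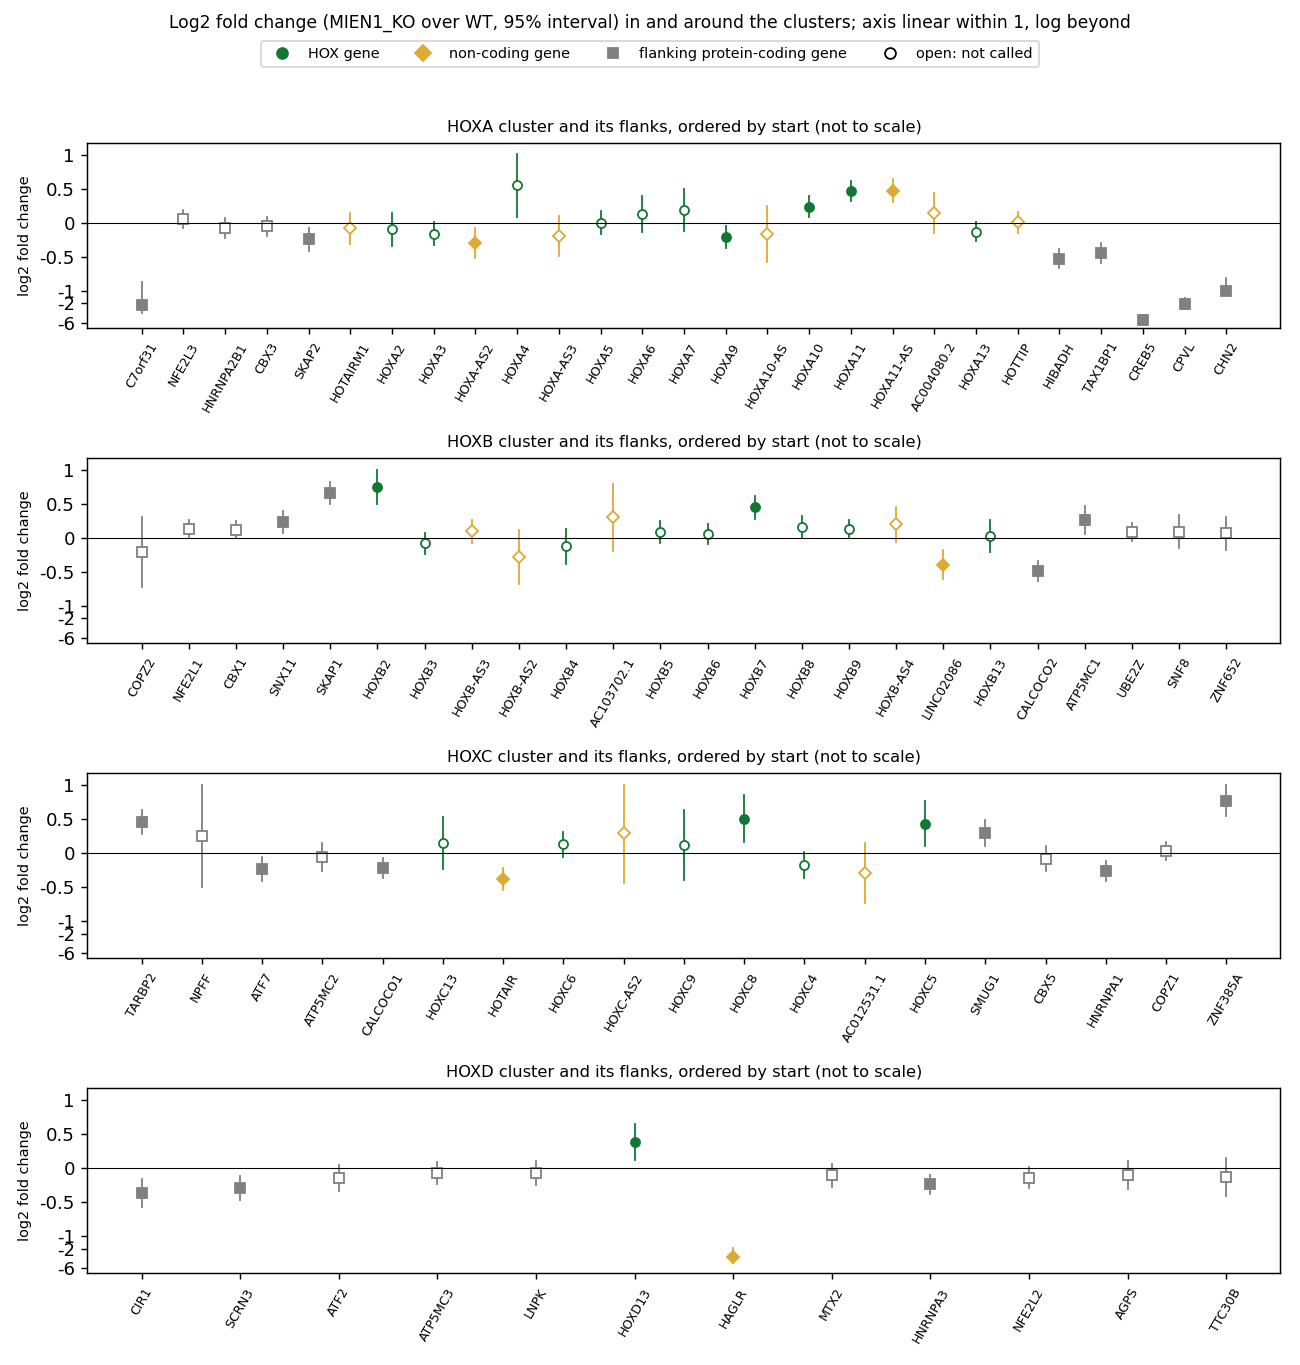
Log2 fold change of MIEN1_KO over WT with its 95% interval for 26 tested HOX genes (green circles), non-coding genes inside the clusters (yellow diamonds) and the 5 nearest tested protein-coding genes on each side (grey squares), ordered by start and not to scale; filled, called; open, not called; the axis is linear within 1 and logarithmic beyond. The lowest points, CREB5 at -5.25 and HAGLR at -3.17, lie outside the HOX genes, those drawn ranging from -0.21 to 0.75. CREB5 and HAGLR passed the low-count filter through WT, where they were high.

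Of 8 tested genes for proteins that bind DNA with HOX factors, 2 were higher and 1 lower (37.5% called, against 41.7% of all tested genes). The higher ones were MEIS1 and MEIS2. MEIS1, which binds with PBX and posterior HOX proteins, measured 1.59, 1.75, 1.60 and 1.63 CPM in WT and 1.87, 3.34, 3.51 and 2.18 CPM in MIEN1_KO (0.73, SE 0.21, adjusted p = 0.012), the MIEN1_KO libraries being higher but widely spread. MEIS2 was far more abundant, at 87.0 ± 2.39 and 101.2 ± 8.13 CPM, and rose slightly (0.22, adjusted p = 0.0235), though not with upper-quartile factors (adjusted p = 0.0911). PBX2, PBX3, PBX4, MEIS3 and PKNOX1 were not called, PBX3 being higher with the GC correction (0.33, adjusted p = 0.00416), and PKNOX2 was at 0 in every library.

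Upstream of HOX genes, the caudal factors CDX1 and CDX2 had the largest estimates. Both had few counts in MIEN1_KO and passed the low-count filter through WT, where they were high. CDX2, the intestinal master regulator, was counted 160, 162, 115 and 157 times in WT and 11, 3, 4 and 7 times in MIEN1_KO (-4.47, SE 0.34, adjusted p = 1.3e-08). CDX1 had 79 counts in WT and 1 in MIEN1_KO, a ratio of 75.0 with a 95% interval of 13.1 to 3000 for counting error. PDX1 (5.19 ± 0.945 and 4.68 ± 0.863 CPM) was not called, and CDX4, GSX1 and GSX2 were at 0. No HOX estimate reached 2-fold, but because of that filter the HOX and caudal sizes are not directly comparable. The 3 HOX genes with CAATAAA in a window, HOXA3, HOXC4 and HOXC5, had log2 fold changes of -0.16, -0.18 and 0.44, and HOXC5 alone was called. The window listed for both HOXC4 and HOXC5, at chr12:54016638-54016887, is not at the start of the HOXC5 gene counted here. In GENCODE that gene begins at 54032853, and HOXC4 at 54016931. Of the 4 retinoid receptors tested, 3 rose (75%, against 21% of all tested genes called higher) and RXRB was not called. The higher ones were RARA (0.69, adjusted p = 8.7e-05), RARG (0.48, adjusted p = 1.5e-04) and RXRA (0.49, adjusted p = 3.1e-04). With the GC correction these 3 stayed called with smaller estimates of 0.41, 0.29 and 0.29, beside 29.1% of all tested genes called higher.

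Chromatin regulators of the clusters were called in either direction, at shares of 26.7% to 46.7% by list, against 41.7% of all tested genes. Of 30 Polycomb genes 8 were higher, 6 lower and 16 not called (46.7% called). With the GC correction 12 were higher and 4 lower, beside the shift of all genes in the same direction. CBX6, a reader of the Polycomb mark, was higher (0.83, adjusted p = 4.5e-06), and PHC1 (-1.12, adjusted p = 1.4e-04) and PCGF5 (-0.55, adjusted p = 1.8e-04), parts of PRC1-type Polycomb complexes, were lower. EZH2, the enzyme that sets the mark, was singled out after its values were seen and went from 101.9 ± 1.81 to 81.3 ± 4.13 CPM (-0.33, adjusted p = 9.4e-04), a call lost with the GC correction (adjusted p = 0.178). Of 15 Trithorax and related enzymes 3 were higher and 1 lower (26.7% called), against 6 higher and 1 lower (46.7%) with the GC correction. The higher ones were KDM6B, which removes the Polycomb mark (0.51, adjusted p = 8.55e-05), DOT1L (0.48, adjusted p = 6.3e-04) and MEN1. ASH2L was lower (-0.40, adjusted p = 7.6e-04). Of 11 genes for chromatin boundaries and cohesin, 36.4% were called. MAZ was higher (1.11, adjusted p = 7.3e-04), RAD21 (-0.34), STAG2 and PDS5B were lower, and CTCF was not called (0.07, adjusted p = 0.45). With the GC correction 4 boundary genes were higher, CTCF among them (0.25, adjusted p = 0.00122), and none lower (RAD21 adjusted p = 0.209, STAG2 adjusted p = 0.682, PDS5B adjusted p = 0.231). Of the homeobox genes linked to the clusters 3 of 13 had enough counts, and MNX1 was higher (0.52, adjusted p = 0.00313) but not with the GC correction (adjusted p = 0.284).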

How the data were processed

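Poly-A RNA of 8 HT-29 libraries (4 WT, 4 MIEN1_KO) was sequenced. Each library's deposited file lists unnormalised counts by gene identifier. The submitters' processing notes name TopHat2 2.0.9, HTSeq 0.6.1 and the build GRCh38. Strand setting, counting mode, treatment of multiply mapping reads and gene annotation are not given in these sources. Symbols, positions, exon lengths and GC content came from GENCODE release 29, which named 45342 of the 48162 identifiers. HOXC5 was taken as the protein-coding identifier of that name.

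Counts were filtered with edgeR 4.0.16 (filterByExpr defaults, 14228 genes left), scaled with TMM (factors 0.929 to 1.03) and tested with the robust quasi-likelihood F test on group, 2-sided, with Benjamini-Hochberg adjustment over all tested genes and a threshold of 0.05. CPM are TMM-scaled. A level "per kb" divides CPM by the union of exons. SE and 95% intervals of log2 fold changes come from the same fit, and the code was tested on simulated data. With 4 libraries a group, p-values measure the spread between these pooled replicates. A gene at 0 has an upper limit of 3 counts (0.0312 CPM over the WT and 0.0329 CPM over the MIEN1_KO libraries), which covers counting error only, as does the exact 95% interval of a ratio of low counts. No 2 libraries agreed within sampling noise: the scatter between replicates of a group (chi-square over its degrees of freedom) was 2.35 to 12.1 but 26.7 to 30.5 between MIEN1_KO replicate 4 and the others. Promoter windows are RefSeq's (GRCh38.p14) and matched 20 of the 39 genes by symbol.

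The HOX genes and all gene lists were chosen with earlier results of these data known. Tested HOX genes were named. From each other list the called genes with the 2 smallest p in each direction were named, together with tested non-coding genes and flanking genes. EZH2, KRT8 and the genes that complete a count of 5 or fewer were named after their values were seen. Values of 1 HOX gene and of some genes of other lists are not reported here, in text or figures, but counts, sums and medians over the lists include them. Alternatives were DESeq2 size factors, upper-quartile factors, no filter, a filter of at least 50 counts in 4 libraries, the DESeq2 1.42.0 Wald test, limma-voom (limma 3.58.1), a replicate block, a loess correction for GC content (span 0.5) and leaving out each library in turn. Computation used R 4.3.3 and Python 3.11.15.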

Additional observations from a re-analysis of the deposited data

Results flagged for a closer look

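Library outliers were sought with Dixon's criterion in 74 groups of 4 libraries, for the tested HOX genes and others named above. Chance alone flags about 1 group in 20, and 3 were found. HOXB7 measured 267.1 CPM in MIEN1_KO replicate 4, above the 212.6, 213.2 and 217.8 CPM of the other MIEN1_KO libraries. HOXC5 measured 4.12 CPM in the same library, above 2.83, 2.87 and 2.92 CPM in the others. LINC02086 measured 6.35 CPM in WT replicate 3, below 7.20, 7.32 and 7.35 CPM in the other WT libraries.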

How the results depend on the processing

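HOXA10, HOXA11, HOXB2 and HOXB7 were called higher in all 16 alternatives, HOXD13 in 14 of 16, HOXC8 in 13 of 15, HOXC5 in 10 of 16 and HOXA9 (lower) in 8 of 16. Over 428 alternative values of single HOX genes, 385 kept direction and side of the threshold, 18 lost a call, 11 gained one and 14 changed sign, and none of 80 summed cluster levels moved by over 1 SD. Genes called lower numbered 5 with upper-quartile factors (HOXA 4, HOXC 1; anterior 2, central 1, posterior 2), 0 with no filter (HOXA 0, posterior 0), and 2 with at least 50 counts (HOXA 2, anterior 1). With the GC correction 1 anterior and 0 posterior genes were lower. HOXC genes called higher numbered 1 with upper-quartile factors, 1 with at least 50 counts and 1 with the GC correction. Leaving out 1 library gave 0 to 1 genes lower (HOXA 0 to 1, posterior 0 to 1), 0 to 2 HOXC and 0 to 1 HOXD genes higher, and 1 to 4 central genes higher. The causes were not tested. Estimates that changed sign were all uncalled: HOXA5 with upper-quartile factors (-0.0560), no filter (-1.1e-05), at least 50 counts (-0.0155) and limma-voom (-5.7e-04); HOXA6 (-0.0545), HOXA13 (0.0991), HOXB6 (-0.0111) and HOXB13 (-0.0850) with the GC correction; and HOXB13 with upper-quartile factors (-0.0260). Leaving out 1 library gave -0.134 to 0.0014 for HOXA2 (positive without WT replicate 4), -0.0222 to 0.0610 for HOXA5 (negative without WT replicate 1 or MIEN1_KO replicates 1 or 3) and -0.0016 to 0.110 for HOXB13 (negative without MIEN1_KO replicate 4). Same-numbered WT and MIEN1_KO libraries deviated together with correlations of -0.08, 0.20, 0.07 and 0.01, so the numbers were not read as pairs; with the replicate block 5984 genes were called in place of 5933, and 7 HOX genes were higher and 1 lower. Depth limits the genes near 1 CPM (HOXA4, HOXC9, HOXC8), whose SE reached 0.24.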
